A study of Mus musculus with 6 samples.

Results

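Distal intergenic peaks of the nuclear RNA-binding protein hnRNP UL1 were examined in RAW 264.7 cells, a line of mouse macrophages. The cells were studied untreated and under lipopolysaccharide (LPS), a component of bacterial outer membranes that is sensed by Toll-like receptor 4. A peak was taken as a member when the authors' annotation placed it in the class Distal Intergenic and its row named a nearest gene. The 3 ChIP-seq peak tables held 2536 such peaks among 18624 complete rows, with 807 at 0 h, 1551 after 4 h and 178 after 10 h. Cells had LPS at 100 ng/ml for 4 h or 10 h or were untreated (0 h), and all 3 chromatin samples were precipitated with the same Proteintech antibody against hnRNP UL1. Each time is 1 library of 1 cell line, without replicates, so no test between times was possible. The 3 matching input libraries were not analysed here.

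Sequence far from genes holds enhancers, elements that act on promoters over a distance, bind transcription factors and are often transcribed into short-lived or long noncoding RNAs. In macrophages, lineage factors such as PU.1 mark many of these elements, and LPS brings NF-kB, AP-1 and interferon-regulated factors to them. hnRNP UL1 is known from RNA processing and from the repair of damaged DNA. Whether a distal peak lies in an enhancer was not measured, and the nearest gene is a position label, not a known target.

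The tables run in order of Ensembl gene ID and end at different IDs. The 10 h table ends at ENSMUSG00000022416, and the 4 h table breaks off in a row after ENSMUSG00000027620. Times were therefore compared over gene IDs below the first of these (the common range, 2097 named genes) or, for 4 h with 0 h, below the second (the longer range, 3420 named genes). Another 1013 distal rows at 0 h, 12 after 4 h and 1 after 10 h name no gene and are no members. Rows give a point 2 bp wide for a peak and no height, so a peak counts as listed or not listed. Shares carry exact 95% Clopper-Pearson intervals. They hold counting error alone and are too narrow, because peaks cluster.

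The label was checked against the RefSeq annotation of GRCm38.p6. Of the distal peaks of the common range 91.6% lay outside every annotated gene at 0 h, 88.0% at 4 h and 92.7% at 10 h. Long noncoding RNA genes held 7.89% (4.49 to 12.7%) at 0 h, 9.84% (7.97 to 11.99%) after 4 h and 5.06% (2.34 to 9.38%) after 10 h. Protein-coding genes of RefSeq held 1, 18 and 4 peaks. The nearest protein-coding gene body belonged to a gene other than the one named for 21.1% (15.5 to 27.5%) of the peaks at 0 h, 15.6% (13.3 to 18.2%) after 4 h and 14.0% (9.30 to 20.03%) after 10 h. No peak lay within 5 kb of an annotated microRNA hairpin. Peaks do not measure expression, so the cell label could not be checked by markers: at 0 h 4 of 10 macrophage markers, 1 of 6 T cell, 1 of 4 B cell, 1 of 4 hepatocyte and 0 of 4 neuron markers were named by a peak, none of them distal.

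Distal peaks lie over 3 kb from the start of the gene they name, so starts in the authors' annotation are nearly excluded beforehand. In all, 11 distal peaks fell within the 300 bases around the annotated start of a RefSeq gene (250 upstream, 50 downstream), all of them at long noncoding RNAs. The windows of 4 such RNAs are shown as examples. Gm34483 lies in the Cd44 neighbourhood described below, and the Gm34974 peaks recur between times. Gm41046 and Gm34346 meet neither condition. Sequence is from RefSeq (GRCm38.p6), 5′ to 3′ on the strand of the RNA. Capitals mark the peak point and 10 bases to each side, as far as the window reaches.
Gm34483: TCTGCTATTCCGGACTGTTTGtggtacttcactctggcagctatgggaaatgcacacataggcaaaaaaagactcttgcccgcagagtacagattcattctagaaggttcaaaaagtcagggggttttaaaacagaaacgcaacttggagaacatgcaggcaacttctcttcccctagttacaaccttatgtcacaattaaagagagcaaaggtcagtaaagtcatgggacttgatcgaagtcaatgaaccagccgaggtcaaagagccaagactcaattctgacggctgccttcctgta
Gm34974: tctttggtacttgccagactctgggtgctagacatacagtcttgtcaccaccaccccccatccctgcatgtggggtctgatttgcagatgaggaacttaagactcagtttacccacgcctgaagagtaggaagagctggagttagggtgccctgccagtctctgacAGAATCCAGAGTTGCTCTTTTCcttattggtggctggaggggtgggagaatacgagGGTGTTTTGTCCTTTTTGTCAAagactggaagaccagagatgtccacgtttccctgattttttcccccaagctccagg
Gm41046: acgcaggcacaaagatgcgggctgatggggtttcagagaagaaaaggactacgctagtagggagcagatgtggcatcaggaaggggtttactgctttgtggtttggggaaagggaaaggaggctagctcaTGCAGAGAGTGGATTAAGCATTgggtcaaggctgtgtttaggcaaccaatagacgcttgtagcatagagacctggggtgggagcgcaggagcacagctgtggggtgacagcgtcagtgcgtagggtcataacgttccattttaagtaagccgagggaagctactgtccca
Gm34346: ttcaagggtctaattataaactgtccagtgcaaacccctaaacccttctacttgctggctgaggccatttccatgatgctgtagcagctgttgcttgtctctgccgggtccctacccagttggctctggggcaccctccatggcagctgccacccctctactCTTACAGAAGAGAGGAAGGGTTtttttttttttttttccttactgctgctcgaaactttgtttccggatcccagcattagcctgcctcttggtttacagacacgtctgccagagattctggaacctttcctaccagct
The Gm34483 window (chr2:102942074-102942373, plus strand) holds the 4 h peak 40.4 kb upstream of Cd44, which encodes the hyaluronan receptor CD44. The Gm34974 window (chr9:61898723-61899022, minus strand), near the ribosomal protein gene Rplp1, holds a peak at 10 h and a peak at 0 h that lie 56 bp apart. Its second stretch of capitals, at base 233, is the 0 h peak and the first, at base 177, the 10 h peak. The Gm41046 window (chr13:102665952-102666251, minus strand) holds a 4 h peak 27.4 kb upstream of Cd180, the gene of an LPS-response receptor related to TLR4. The Gm34346 window (chr10:98882688-98882987, minus strand) holds a 10 h peak 31.6 kb upstream of Atp2b1, a calcium pump gene. These windows were searched on both strands for the PU.1 core GAGGAAGT, the AP-1 site TGANTCA, an NF-kB consensus and the interferon-response core GAAANNGAAA. Of 32851 mouse promoter windows of the same length 3.20%, 7.81%, 8.46% and 3.44% hold them. The only match was GAAAGGGAAA at base 108 of Gm41046, outside the stretch in capitals. The windows with a distal peak that are not shown held no match either.

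LPS for 4 h was accompanied by more distal peaks, and after 10 h their number was near that before LPS. The common range held 190 distal peaks at 0 h, 894 after 4 h and 178 after 10 h. The ratio was 4.71 (4.02 to 5.53) for 4 h over 0 h, 0.199 (0.169 to 0.234) for 10 h over 4 h and 0.937 (0.759 to 1.16) for 10 h over 0 h. Over peaks of all classes these ratios were 4.04, 0.217 and 0.878. For 4 h over 0 h the distal class grew more than promoter peaks within 1 kb of a start, whose ratio was 2.35 (2.105 to 2.63). Promoter peaks 1 to 3 kb from a start had 5.30 (4.48 to 6.30) and intron peaks 5.07 (4.57 to 5.64). Peaks in exons or untranslated regions had 4.52 (3.29 to 6.32), and those of the class Downstream 2.94 (1.96 to 4.51). Except for promoter peaks within 1 kb, each of these intervals overlaps the distal one.

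**Figure D1:**
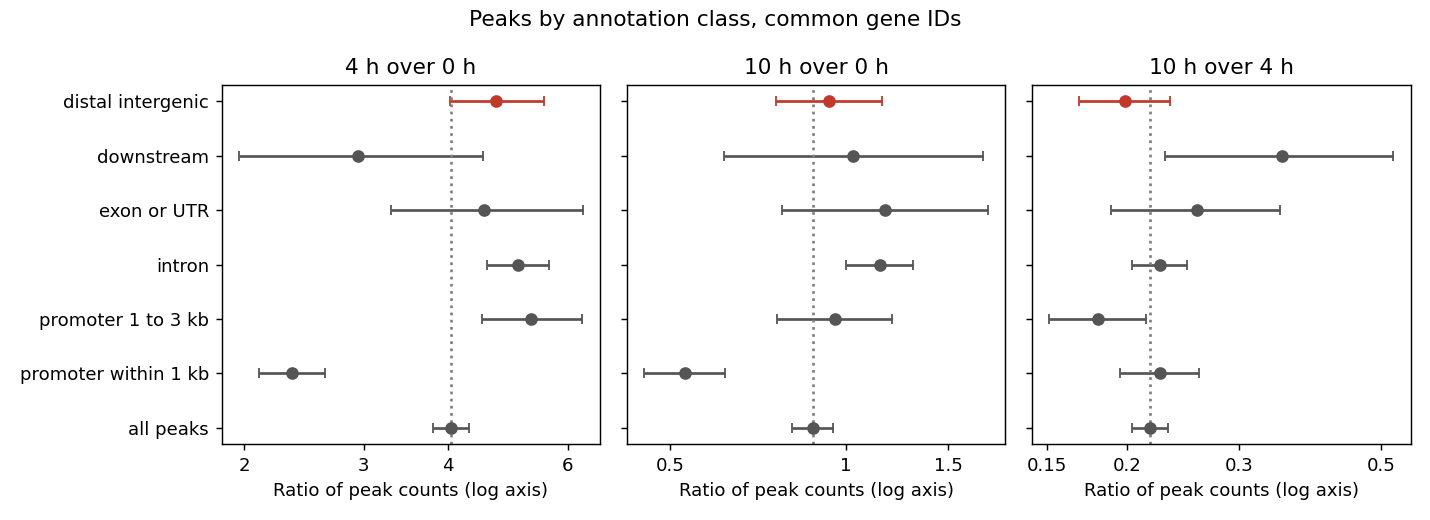
Ratio of the number of peaks between times (log axis) for each annotation class over the common gene IDs, with exact 95% intervals as bars and the ratio of all peaks as a dotted line. Distal intergenic peaks (red) had a ratio of 4.71 for 4 h over 0 h, against 2.35 for promoter peaks within 1 kb, and the intervals of these 2 classes do not overlap. Promoter peaks 1 to 3 kb from a start had 5.30, with an interval that overlaps the distal one.

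As a share of all peaks the class held 14.5% (12.6 to 16.5%) at 0 h, 16.9% (15.9 to 17.9%) after 4 h and 15.5% (13.4 to 17.7%) after 10 h. The ratio of the shares of 4 h over 0 h was 1.17, with bounds of 0.995 and 1.37 on either side of 1. In the longer range, with 1551 distal peaks at 4 h and 305 at 0 h, it was 1.25 (1.11 to 1.42). That range contains the common one, so it is no independent count. For 10 h over 4 h the ratio of shares was 0.916 (0.775 to 1.08) and for 10 h over 0 h 1.07 (0.865 to 1.32). Read depth of the libraries is unknown, and its part in the number of peaks was not tested.

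Distal peaks lay mostly within 50 kb of a gene start at every time. Their median distance was 14.4 kb (95% interval 12.04 to 16.5 kb) at 0 h, 13.4 kb (12.5 to 14.7 kb) at 4 h and 12.9 kb (10.3 to 14.96 kb) at 10 h. The middle 50% of peaks spanned 7.90 to 29.0 kb at 0 h, 7.35 to 24.5 kb at 4 h and 6.90 to 23.0 kb at 10 h. These ranges overlap. Beyond 50 kb lay 22 of 190 peaks at 0 h (11.6%), 65 of 894 at 4 h (7.27%) and 14 of 178 at 10 h (7.87%). The nearest peaks of each table stood just over 3 kb from a start, where the promoter classes of the annotation end. At the inner edge were Spic and Mtdh at 4 h, both with a peak 3.003 kb upstream.

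Most distal peaks lay upstream of the gene they name: 65.3% (58.03 to 72.01%) at 0 h, 70.6% (67.5 to 73.6%) after 4 h and 62.4% (54.8 to 69.5%) after 10 h. By the annotation a downstream distal peak lies past the whole gene body, whereas an upstream one lies past the first 3 kb. Upstream peaks were nearer the start, with medians of 12.2, 11.5 and 10.6 kb at 0, 4 and 10 h, against 18.1, 17.7 and 14.9 kb for downstream ones. Measured to the nearest edge of any protein-coding gene, the medians were 8.19, 8.47 and 7.48 kb.

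**Figure D2:**
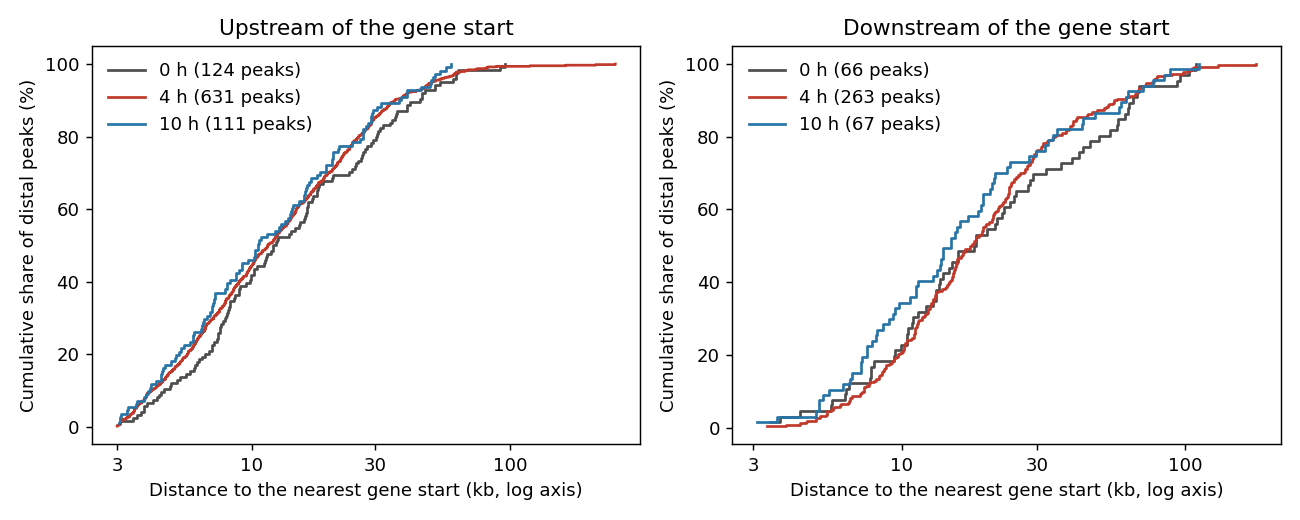
Cumulative share of distal peaks (vertical axis, %) by distance to the nearest gene start (log axis, kb), for peaks upstream (left) and downstream (right) of the start, at 0 h, 4 h and 10 h in the common range. The 3 curves run close together, with overall medians of 14.4, 13.4 and 12.9 kb.

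The 3 farthest peaks of each table also lay 71.0 kb or more from any protein-coding gene, except the one at Sipa1l2, at 9.22 kb. At 0 h the farthest lay 253 kb from Kif2b, a kinesin gene, 205.3 kb from the TGF-beta signal transducer gene Smad2 and 204.9 kb from Fzd1, a Wnt receptor gene. At 4 h the farthest was 376 kb downstream of the start of Gpam, which encodes an enzyme of triglyceride synthesis, followed by a peak 365 kb from Xpnpep1 and a peak 256 kb upstream of the thyroid hormone receptor gene Thrb. At 10 h they lay 112 kb from Rnd3, 88.3 kb from Stmn4 and 83.9 kb from Sipa1l2. Stmn4, a stathmin-family gene, also had the farthest 0 h peak of the common range, at 109 kb.

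At 4 h distal peaks gathered at single loci, and peaks for each gene rose in other classes too. There were 1.30 distal peaks for each gene named at 0 h (146 genes), 1.73 at 4 h (516 genes) and 1.23 at 10 h (145 genes). For intron peaks these values were 1.65, 2.50 and 1.68, and for promoter peaks within 1 kb 1.11, 1.27 and 1.07. At least 3 distal peaks named 11 of these genes at 0 h (7.53%), 78 at 4 h (15.1%) and 5 at 10 h (3.45%). Peaks were also joined into runs in which each lies within 10 kb of the next. Runs of several peaks held 24.2% (18.3 to 30.9%) of the distal peaks at 0 h and 49.7% (46.3 to 53.0%) at 4 h. At 10 h the share was 19.1% (13.6 to 25.7%). There were 5 runs of at least 3 peaks at 0 h, 53 after 4 h and 2 after 10 h. The 4 h runs were 0.892 to 32.7 kb long, with a median of 7.76 kb and up to 12 peaks. Of these 53 runs 13 held a 0 h peak of any class and 12 a 10 h peak. The 4 h list is 4.71 times as long as the 0 h list, and the part of list length in the share of peaks in runs was not tested.

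The interval between Cd44 and Pdhx, the gene of a pyruvate dehydrogenase subunit, led when peaks were counted between neighbouring protein-coding genes regardless of the gene named. This interval of 119 kb on chromosome 2 (102901670 to 103021054) held 4 distal peaks at 0 h, 19 after 4 h and 3 after 10 h. Cd44 (ENSMUSG00000005087) was named by 1 distal peak at 0 h, 15 after 4 h and 2 after 10 h, all upstream. Of the 16 peaks naming Cd44 at 4 h only 1 was not distal, and it lay at the promoter. With peaks within 1 kb counted once, the 15 distal peaks were 11. The 15 stood 7.48, 12.5, 23.5, 23.96, 24.6, 31.3, 34.3, 40.4, 45.7, 61.9, 66.4, 74.7, 80.7, 81.3 and 82.2 kb upstream of the start. The 0 h peak, 12.5 kb upstream, lay 41 bp from the second of them, whereas the 10 h peaks at 19.4 and 21.7 kb matched none within 500 bp. Pdhx itself was named by 3 distal peaks at 0 h, 4 after 4 h and 1 after 10 h.

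Plk2 (ENSMUSG00000021701), which encodes a polo-like kinase, was named by 2 distal peaks at 0 h, 12 after 4 h and 4 after 10 h. At 4 h 11 of the 12 lay downstream, from 6.58 to 77.4 kb from the start, in an interval of 854 kb with no other protein-coding gene before Actbl2. The 0 h peaks stood 54.4 and 102.7 kb downstream. The 10 h peaks stood 12.7 kb upstream and 5.26, 59.2 and 76.8 kb downstream. Plk2 and Cd44 differ in the side that holds the peaks.

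Cd83, a gene of the immunoglobulin superfamily that marks activated antigen-presenting cells, was named by 2 distal peaks at 0 h, 11 after 4 h and 0 after 10 h. A run of 9 peaks at 4 h spanned 27.4 kb upstream of Cd83, and 2 more stood 19.2 and 21.9 kb downstream of the start. The 2 peaks at 0 h, 32.2 and 6.59 kb upstream, lay inside the stretch of that run. Both 10 h peaks naming Cd83 lay in introns.

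Il10, the gene of the anti-inflammatory cytokine IL-10, was named by 0 distal peaks at 0 h, 8 after 4 h and 0 after 10 h. They stood 4.48 and 3.26 kb upstream and 5.41 to 25.6 kb downstream of its start. With a further peak naming Mapkapk2, a kinase gene of the p38 pathway, they formed a run of 9 peaks over 31.0 kb around Il10. The 1 peak naming Il10 at 0 h lay at its promoter, and no peak of any class named Il10 at 10 h.

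Cd274 and Pdcd1lg2, neighbouring genes of the checkpoint ligands PD-L1 and PD-L2, are 22.8 kb apart, and this interval held 3 distal peaks at 0 h, 8 after 4 h and 3 after 10 h. Pdcd1lg2 was named by 3, 7 and 2 of them. Here the positions recurred. Peaks 20.5 kb upstream of Pdcd1lg2 stood at bases 29390437 at 0 h, 29390445 after 4 h and 29390423 after 10 h of chromosome 19, within 22 bp of each other. At Cd274 most peaks lay inside the gene: 26 peaks of all classes named it at 4 h and 16 at 10 h, of which 1 each was distal.

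4930524B15Rik was named by 3 distal peaks at 0 h, 12 after 4 h and 4 after 10 h. The 12 formed the run with the most peaks of the 4 h table in the common range, 20.2 kb long. With peaks within 1 kb counted once the 12 were 5, whereas the 11 at Cd83 and the 8 at Il10 stayed as many. The run began 0.169 kb past the end of Cpeb4, the gene of a regulator of mRNA polyadenylation. It ended 9.54 kb before 4930524B15Rik, so by position it follows Cpeb4. Peaks 28.2 kb upstream of 4930524B15Rik at 10 h and at 4 h lay 5 bp apart, and peaks 16.9 kb upstream 12 bp apart. Peli1, which encodes an E3 ubiquitin ligase of Toll-like receptor signalling, was named by 4 distal peaks at 0 h, 11 after 4 h and 2 after 10 h. Those at 4 h lay on both sides, 6 from 43.5 to 73.8 kb upstream and 5 from 18.96 to 24.5 kb downstream, with promoter and intron peaks between them.

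**Figure D3:**
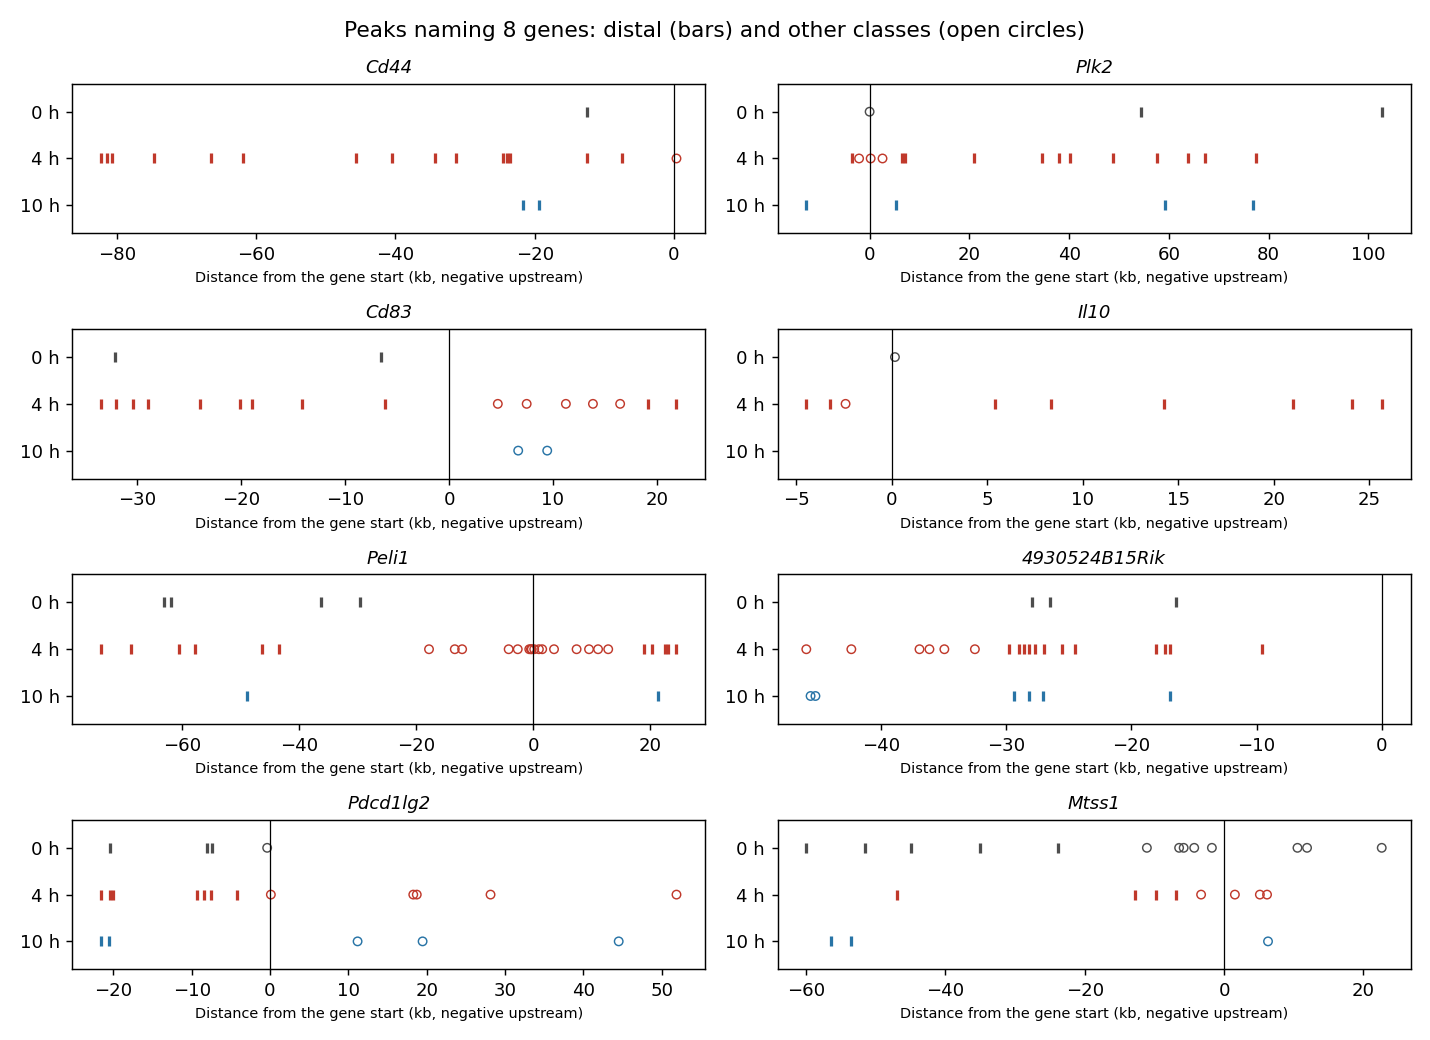
Peaks naming 8 genes at 0 h, 4 h and 10 h by distance from the gene start (kb, negative upstream), with distal peaks as bars and peaks of other classes as open circles. Cd44 had 1 distal peak at 0 h, 15 after 4 h and 2 after 10 h, all upstream, whereas 11 of the 12 at Plk2 at 4 h lay downstream, and Mtss1 had 5, 4 and 2.

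Further loci held at least 5 distal peaks at 4 h. Between Hivep1 and the endothelin gene Edn1 there were 1, 8 and 0 distal peaks at 0, 4 and 10 h, and between the chemokine genes Ccl8 and Ccl1 0, 5 and 1. Fam49a was named by 7 distal peaks at 4 h and the receptor kinase gene Met by 6, each against 0 at 0 h. Rnd3, which encodes an atypical small GTPase, was named by 1, 8 and 2 distal peaks at 0, 4 and 10 h, Itm2b by 2, 8 and 1 and Dazl by 1, 7 and 0. Tns3, a focal adhesion gene, was named by 4, 8 and 1.

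Among the gene IDs that the longer range adds to the common one, Cox7a2l, a mitochondrial respiratory gene, and the transporter gene Slco3a1 were named by 9 distal peaks each at 4 h and 0 at 0 h. At Slco3a1 these were 9 of 74 peaks naming the gene, at Cox7a2l 9 of 10. Ptprj, a receptor phosphatase gene, also had 9 distal peaks at 4 h, with 2 at 0 h, and Gna14 by 8 and 3. Jak2, the kinase gene of cytokine receptors, was named by 6 at 4 h and 0 at 0 h, and Il1rl1, the gene of the IL-33 receptor ST2, by 5 and 0. However, 4 of the 5 peaks naming Il1rl1 lay inside its RefSeq gene body.

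Some loci had more distal peaks at 0 h than at 4 h, but among genes only Syngr1 differed by at least 3. Mtss1, an actin- and membrane-binding protein gene, had the most at 0 h in the common range, with 5 at 0 h, 4 after 4 h and 2 after 10 h. Its 0 h peaks stood 23.8, 35.03, 44.9, 51.5 and 59.97 kb upstream, whereas 3 of the 4 h peaks stood within 12.8 kb. Atp6v1c1, which encodes a subunit of the lysosomal proton pump, was named by 4, 2 and 0, and the 4 peaks at 0 h lay in 3.64 kb. With peaks within 1 kb counted once, Atp6v1c1 had 3 at 0 h and 2 at 4 h. Syngr1 was named by 3, 0 and 1, and the interval from Syngr1 to Tab1, the gene of a TAK1-binding protein, held 4, 0 and 1. Beyond the reach of the 4 h table, the 0 h table held 502 more distal peaks. There Atp6v0d2, another proton pump subunit gene, was named by 7 distal peaks of 24 in all, and Plcl2 by 6.

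**Figure D4:**
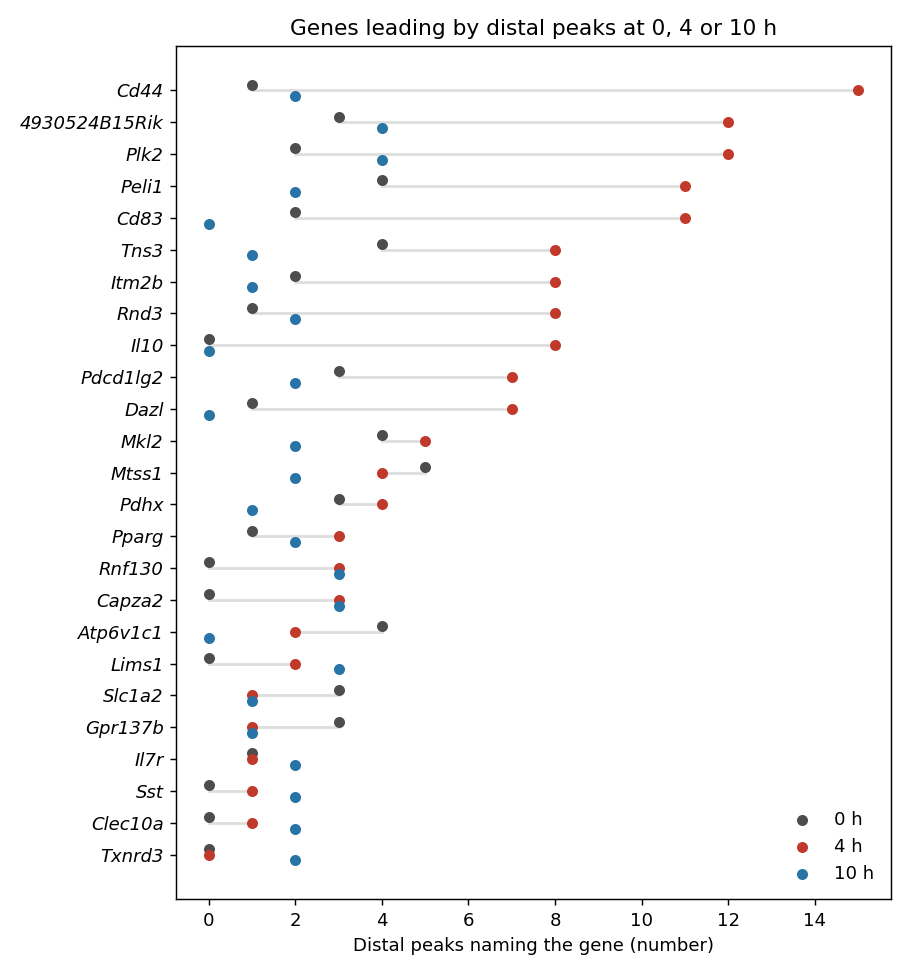
Number of distal peaks naming each gene at 0 h, 4 h and 10 h (points), for the genes with the most distal peaks at any of these times in the common range; a grey line joins 0 h and 4 h. Cd44 had 15 at 4 h against 1 at 0 h, while Mtss1, Atp6v1c1, Slc1a2 and Gpr137b had fewer at 4 h than at 0 h.

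Gains at single genes outnumbered losses between 0 h and 4 h. A gene was called changed at a difference of at least 3 distal peaks, a descriptive threshold with no test. At 4 h against 0 h 65 of 2097 genes (3.10%) gained and 1 (0.0477%), Syngr1, lost. Counting peaks of any class, 472 genes (22.5%) gained and 11 (0.525%) lost, so gains led there too. In the longer range 117 of 3420 genes (3.42%) gained distal peaks and 1 (0.0292%) lost, against 820 (24.0%) and 21 (0.614%) for any class. At 10 h against 4 h 0 genes (0.00%) gained and 64 (3.05%) lost, against 3 (0.143%) and 498 (23.7%) for any class. At 10 h against 0 h 3 genes (0.143%), Capza2, Lims1 and Rnf130, gained and 3 (0.143%), Atp6v1c1, Tns3 and Mtss1, lost, against 40 (1.91%) and 51 (2.43%) for any class. Capza2 encodes an actin-capping subunit and Lims1 an adaptor of integrin adhesions. Of the 3 distal peaks naming Rnf130 at 10 h, 1 lay inside its RefSeq gene body.

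Part of the genes with a distal peak had one at more than 1 time. At 4 h 516 genes had a distal peak and at 0 h 146, with 90 in both lists, which is 17.4% of the 4 h genes and 61.6% of the 0 h genes. At 10 h 145 genes had one, of which 84 (57.9%) had one at 4 h and 40 (27.6%) at 0 h. Of all 626 genes with a distal peak 33 had one at every time, while 49 had one only at 0 h, 375 only after 4 h and 54 only after 10 h. Lists of genes named by peaks of any class are longer, with 789 genes at 0 h, 1830 after 4 h and 678 after 10 h. The 612 genes named at 4 h and at 0 h were 33.4% of the 4 h genes and 77.6% of the 0 h genes. Of those named at 10 h 81.1% were also named at 4 h and 46.0% at 0 h. Of all 2097 genes named by a peak of any class 274 were named at every time. Another 139 were named only at 0 h, 942 only after 4 h and 90 only after 10 h. The 33 genes with a distal peak at every time included Cd44, Plk2, Peli1, Pdcd1lg2, Mtss1 and Tns3, as well as Pparg, a lipid-sensing nuclear receptor gene.

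Positions were compared by the peak points. It is not stated whether a point is a summit or a midpoint, or how wide a peak is, so peaks whose points lie over 500 bp apart may still overlap. Where a gene had distal peaks at 4 h and at 0 h, the closest pair lay a median of 2.97 kb apart (90 genes), and 24.4% (16.0 to 34.6%) of these genes had a pair within 500 bp. Of the distal peaks at 0 h 15.3% (10.5 to 21.2%) lay within 500 bp of any 4 h peak, against 19.1% of 0 h peaks of all classes and 14.1% of intron peaks. For 0 h promoter peaks within 1 kb the share was 27.0% (22.95 to 31.3%), an interval that does not overlap the distal one. Of the distal peaks at 10 h 11.8% (7.45 to 17.5%) lay near a 4 h peak. The share was 29.2% (23.5 to 35.4%) for 10 h promoter peaks and 20.3% (18.02 to 22.8%) for 10 h peaks of all classes. Neither interval overlaps the distal one, whereas that of intron peaks, with 20.2% (16.7 to 24.01%), does. Near a 0 h peak lay 6.18% (3.12 to 10.8%) of the distal peaks at 10 h, against 7.99% of 10 h peaks of all classes and 5.76% of intron peaks. For 10 h promoter peaks the share was 14.2% (10.01 to 19.2%), an interval that overlaps the distal one. Only 5 distal peaks at 0 h, 7 after 4 h and 6 after 10 h had a peak of both other times within 500 bp. Among the genes they named were 4930524B15Rik, Pdcd1lg2, the proton pump gene Atp6v1b2, Tns3 and Ubb.

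Of the genes with distal peaks some also had a promoter peak within 1 kb at the same time. At 0 h these were 34 of 146 (23.3%, 16.7 to 31.0%), at 4 h 36.0% (31.9 to 40.4%) and at 10 h 11.03% (6.44 to 17.3%). Of the named genes without a distal peak more had a promoter peak, with 58.2%, 49.6% and 39.0% at 0, 4 and 10 h. A gene without a distal peak is listed only through another class, so these shares are not like for like. Distal peaks were the only peaks naming the gene at 78 genes at 0 h, 171 after 4 h and 89 after 10 h.

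The share of early LPS-induced genes with a distal peak was above that of all genes both at 0 h and at 4 h. This also held for other lists, among them housekeeping genes, as given below. The gene lists below count only members that a row names in the common range. They were chosen with earlier results of these data known, so a raised share is no independent support. The list of early LPS-induced genes had 15 such members, with 6 distal peaks at 0 h, 37 after 4 h and 5 after 10 h. At 0 h 4 of the 15 (26.7%) had a distal peak, against 6.96% of all 2097 genes. At 4 h 9 of the 15 (60.0%) had one, with a median of 1, against 24.6% and a median of 0 over all genes. Of these members Cd83, Cd40 and Plk2 gained at least 3 over 0 h. Cd40, a costimulatory receptor gene, had 4 at 4 h and 0 at 0 h, but the 4 were 1 with peaks within 1 kb counted once. Tnfaip3, the gene of the NF-kB inhibitor A20, had 3 at 4 h and 1 at 0 h, and Nfkbia, the gene of IκBα, 2 and 1. The 16 late LPS-induced members had 4, 33 and 6 distal peaks at 0, 4 and 10 h. Of the 16 members 2 (12.5%) had one at 0 h and 8 at 4 h. In this list Il10, Aoah, Nos2, Edn1 and Pdcd1lg2 gained at least 3. Aoah, whose enzyme deacylates LPS, had 5 at 4 h and 0 at 0 h. Nos2, whose enzyme makes nitric oxide in activated macrophages, had 4 and 0.

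The interferon-response list had 1 distal peak at 4 h. The 7 members of that list were named by 52 peaks of all classes at 4 h, of which 1, at the nucleotide kinase gene Cmpk2, was distal (1.92%). That is 1 of 7 members (14.3%) with a distal peak, against 24.6% of all genes, and 48 of the 52 peaks named only 3 members. Over all genes 16.9% of the 4 h peaks were distal. A low share was not particular to this list. At 4 h 6.25% of the 64 peaks naming hnRNP and splicing factor genes were distal, and 7.14% of the 56 naming macrophage identity genes. In the early LPS-induced list distal peaks made up 54.5% of 11 peaks at 0 h and 37.8% of 98 after 4 h, and in the late list 30.8% of 13 and 27.7% of 119. A pair of members gave much of this at 4 h. Without Plk2 and Cd83 the early share was 20.9%, and without Il10 and Pdcd1lg2, which had the most distal peaks of the late list, that share was 18.4%. The 10 TLR4 and NF-kB signalling members had 6, 16 and 3 distal peaks at 0, 4 and 10 h, of which Peli1 gave 4, 11 and 2. Of these 10 members 3 had a distal peak at 0 h and 5 at 4 h. Macrophage identity genes had 1, 4 and 1 over 12 members, with 1 at most at each gene, among them Adgre1, the gene of the F4/80 antigen, at 4 h. Housekeeping genes had 2, 5 and 1 over 5 members and hnRNP and splicing factor genes 2, 4 and 0 over 13. Of the 5 housekeeping members 2 (40%) had a distal peak at 0 h and 2 at 4 h. Both shares were above those of all genes, and at 0 h above that of the early list. Of the 20 housekeeping peaks at 4 h 25% were distal. Of the 13 hnRNP and splicing factor members 2 (15.4%) had a distal peak at 0 h, above the share of all genes. At 4 h 3 (23.1%) had one, below the 24.6% of all genes. As the housekeeping members show, a share above that of all genes was not limited to LPS-induced lists. Of cell types the culture should lack, T and B cell genes had 1, 1 and 2 over 4 members, all at the interleukin receptor gene Il7r. That is 1 of 4 members (25%) at each time, against 6.96%, 24.6% and 6.91% of all genes at 0, 4 and 10 h. The 1 hepatocyte member had 0, and no neuronal gene was named.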

How the data were processed

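Peak tables of the 3 ChIP samples, 1 library per time, were used. The submitters' processing notes name MACS2 2.1.0, BWA 0.7.12 and CASAVA 1.8 and the build GRCm38 (mm10); their settings, the annotation tool and read depth are not given in the sources used here. The authors deposited, per the file headers, the position of each peak, its annotation class, nearest gene and signed distance to that gene's start; there are no heights, counts or scores. The broken last row at 4 h and the end gene of each range were left out.

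Peaks were counted by class, gene, run and position with Python 3.11.15, pandas 2.3.3, numpy 2.4.6 and scipy 1.17.1. Counting was tested on simulated peaks with known answers. Intervals of shares are exact Clopper-Pearson (95%), those of ratios exact given the summed counts, and those of medians from order statistics; all cover counting error only. Gene bodies, promoter windows and microRNA hairpins come from RefSeq (GRCm38.p6). Members, the 10 gene lists and thresholds were chosen with earlier results of these data known. Genes were named by rank: most distal peaks per time and range, largest differences between times, farthest peaks, longest runs, positions shared by all times and list members. Intervals between protein-coding genes, and the loci named from them, were chosen after their values were seen, as were the genes named for distances at the inner edge. A planned study of sequence at all peaks needs a genome and was not run. Distance to the nearest start of any RefSeq gene was replaced by distance to the nearest protein-coding gene edge.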

Additional observations from a re-analysis of the deposited data

How the results depend on the processing

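Of 119 values under alternative settings 67 stayed within the interval of the reported value, or within 1.5 times a reported count, and 52 moved beyond it. With peaks at least 10 kb from the start, the distal share was 9.38% at 0 h, 10.6% at 4 h and 9.03% at 10 h, and with peaks at least 3 kb from every RefSeq gene 12.04%, 13.5% and 11.5%. In 5 parts of the common gene IDs the ratios varied. For 4 h over 0 h the ratio of distal peaks was 6.10 in part 4 and 3.60 in part 5 (shares 1.37 and 0.960). For 10 h over 0 h it was 0.725 in part 2, 1.45 in part 4 and 0.636 in part 5 (shares 0.851, 1.69 and 0.721). For 10 h over 4 h it was 0.160 in part 2 and 0.237 in part 4, and the ratio of shares was 0.692 in part 2, 1.23 in part 4 and 0.751 in part 5. Every part had more distal peaks at 4 h than at either other time, whereas the direction of 10 h against 0 h differed between parts. Median distance to the nearest protein-coding gene edge, a setting added after seeing the data, was 8.19, 8.47 and 7.48 kb at 0, 4 and 10 h.

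Without the 2 members with the most distal peaks, a setting added after seeing the data, distal peaks made up 20.9% of the 4 h peaks of the early LPS-induced list and 18.4% of those of the late list, against 37.8% and 27.7% with all members.

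Counts followed their thresholds. With at least 2 distal peaks there were 27, 186 and 26 genes at 0, 4 and 10 h, and with at least 5 there were 1, 21 and 0. Runs at 0 h numbered 3 with gaps up to 5 kb and 9 with gaps up to 20 kb. Within 200 bp of a 4 h peak lay 5.62% of the distal peaks at 10 h and 7.37% of those at 0 h, and within 2000 bp 26.4% and 28.9%. For 10 h near 0 h these were 2.81% and 11.8%. At a difference of 2 or more distal peaks, 159 genes gained and 7 lost at 4 h against 0 h, 14 gained and 18 lost at 10 h against 0 h, and 4 gained and 162 lost at 10 h against 4 h. At 5 or more these were 16 and 0, 0 and 0, and 0 and 20. With peaks within 1 kb counted once, 53 genes gained at 4 h against 0 h, fewer than the 65 reported. With this setting 0 genes lost, since 2 of the 3 Syngr1 peaks merged. At 10 h against 4 h 53 genes lost, fewer than the 64 reported. The cause of the other changes was not tested. No paired analysis was possible because each time has 1 library and no value comes from a test. Unknown read depth, 1 library per time and tables that end at different genes limit every comparison between times.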
